A study of Mus musculus with 6 samples.

Results

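Capillary endothelial cells line the smallest vessels of fat, where lipoprotein lipase, held on their luminal surface by Gpihbp1, frees fatty acids from circulating triglyceride, and where Cd36 and the binding proteins Fabp4 and Fabp5 carry these fatty acids toward the adipocytes. In inguinal white adipose tissue (iWAT), cold exposure recruits Ucp1-expressing beige adipocytes that burn fatty acids, a demand served by the capillary bed. The capillary cells also build, together with pericytes, the basement membrane of collagen IV and laminin on which the vessel rests.

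Capillary endothelial cells were described here in single-cell RNA sequencing of stromal vascular cells of iWAT, from which CD45+ immune cells had been sorted out. The mice were C57BL/6 males, supplied as C57BL/6JN or C57BL/6J, and at the end either young (9 weeks) or aged (57 weeks). After 3 weeks of acclimation at 30 °C, thermoneutrality for mice, they stayed there (TN) or spent the last 3 days (3D) or 14 days (14D) at 6 °C. There were 6 libraries, 1 for each age and temperature, called Young TN, Young 3D, Young 14D, Aged TN, Aged 3D and Aged 14D, and although the study's methods say that mice were pooled only where this is stated, and state none for these libraries, the number of mice in each is not given outright in the sources used here. With 1 library per age and temperature, p-values measure only the spread between libraries, which may be partly technical. In the gene tests of age and of temperature this is the spread left once both are added up, and in the exact permutation tests of shares it is the spread within an age, temperatures included. A cell was a barcode with at least 1000 unique molecular identifiers (UMIs, each standing for 1 captured transcript), less than 10% mitochondrial UMIs and less than 30 UMIs of Dcn (a fibroblast proteoglycan) per 10000. It counted as capillary with at least 3 UMIs in sum of the endothelial genes Cdh5, Pecam1 and Cldn5, at least 3 of the capillary genes Gpihbp1 and Car4, at most 1 of the Plvap and Lrg1 that mark venular-type cells, and 0 of the lymphatic genes Prox1 and Mmrn1.

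The rule found 3486 capillary cells among 68103 barcodes, of which 61195 lay within the limits on UMIs and mitochondrial share and 5174, called endothelial barcodes below, also met the limits on Dcn and on the 3 endothelial genes. They numbered 441 in Young TN, 415 in Young 3D, 527 in Young 14D, 1072 in Aged TN, 671 in Aged 3D and 360 in Aged 14D. Their median depth was 3183, 3258, 2756, 2630.5, 2882 and 2956.5 UMIs in the same order, against 3456 to 9481.5 UMIs for all barcodes within the limits, and their summed depth ran from 1298357 UMIs in Aged 14D to 3178569 in Aged TN. The rule selected on the 10 genes it names and on mitochondrial UMIs, so nothing is read from tests of these genes. At its edges, 121 capillary cells held exactly 3 UMIs of Gpihbp1 and Car4 while 94 barcodes missed the rule with 2, and 122 held exactly 3 UMIs of the endothelial genes while 66 missed with 2. A further 922 barcodes carried 3 or more capillary UMIs but also 2 or more of Plvap and Lrg1, and were left out. No doublet caller was run, and 63.6 to 87.5% of the capillary cells of a library held 3 or more UMIs in sum of 35 marker genes of fibroblasts, pericytes, immune cells, adipocytes and Schwann cells. Across libraries 562 pairs of barcodes had the same sequence, 1 of them a pair of capillary cells (Aged TN and Aged 14D).

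Endothelial genes that the rule did not use were abundant in capillary cells. Fibroblasts, used for comparison, were barcodes within the same quality limits with at least 30 UMIs of Dcn per 10000, at least 1 of Pdgfra and 0 of Cdh5, Pecam1 and Cldn5. Flt1, a receptor for VEGF, stood at 992 ± 148 against 1.50 ± 1.11 CPM in fibroblasts of the same libraries (CPM, mean ± SD, n = 6 libraries, where CPM is a gene's UMIs summed over the cells and scaled to the same total UMIs in every library). The junction-associated phosphatase Ptprb stood at 790.0 ± 91.3 against 1.09 ± 0.975 CPM. Summed over 12 endothelial markers outside the rule, the level was 6901, 6965 and 7135 CPM in Young and 7009.8, 6785 and 6052 CPM in Aged, in the order TN, 3D and 14D that is kept below. The 10 markers of fat capillaries outside the rule, led by Fabp4, summed to 63557, 77167 and 72781 CPM in Young and 67198.5, 86686 and 79188 CPM in Aged. They summed to 13312, 17539.7 and 18836 CPM in Young and 13400.1, 17842 and 12868 CPM in Aged in the 215 Plvap+ Lrg1+ cells, endothelial cells with 3 or more UMIs of Plvap and Lrg1 and at most 1 of Gpihbp1 and Car4. Among the genes of the rule, Cldn5 and Cdh5 were at 2359 ± 385 and 1243 ± 122 CPM, and the 40217 fibroblasts held none by their own definition. Gpihbp1 was at 4204 ± 384 against 3.32 ± 2.99 CPM in fibroblasts, and Car4, a membrane-bound carbonic anhydrase, at 872 ± 109 against 6.47 ± 7.38 CPM in the Plvap+ Lrg1+ cells. Of the 7 venular markers most were low, with the adhesion molecule Selp at 1.02 ± 0.51 against 286 ± 196 CPM and the chemokine-binding receptor Ackr1 at 1.41 ± 1.40 against 309 ± 151 CPM in the Plvap+ Lrg1+ cells, and Sele without a UMI. Icam1, an adhesion molecule of the same list, was not low, at 265, 259 and 338 CPM in Young and 226, 337 and 329.6 in Aged against 315 ± 130.04 CPM in the Plvap+ Lrg1+ cells, and led the list's sum of 414, 369 and 453 CPM in Young and 358, 445 and 458 CPM in Aged. The 8 arterial markers, against which the rule sets no limit, summed to 1079, 1004 and 837 CPM in Young and 1035, 992 and 808 CPM in Aged in capillary cells and 402 to 787 CPM in the Plvap+ Lrg1+ cells, and cells of arterial type were not set apart. The median of 8 fibroblast markers was between 1.05% (Aged TN) and 2.90% (Aged 14D) of the fibroblasts' own level.

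The share of capillary cells among endothelial barcodes was 62.6, 63.1 and 63.7% in Young TN, 3D and 14D and 66.7, 76.2 and 72.6% in Aged TN, 3D and 14D. Every Aged library lay above every Young one, with means of 71.8 ± 4.80% and 63.1 ± 0.545% (SD, n = 3 libraries), and a two-sided exact permutation test gave p = 0.1, the smallest p that 3 against 3 libraries allow. With every cell thinned to 2000 UMIs the ages overlapped (74.0 ± 7.29% in Aged, 66.3 ± 0.557% in Young, exact permutation p = 0.3), Aged TN lying no longer above the Young libraries. With at least 5 UMIs of Gpihbp1 and Car4 required, the difference fell from 8.66 to 5.04 percentage points (exact permutation p = 0.3). Aged was still higher than Young at each of the 3 temperatures there. As a share of all barcodes within the limits, capillary cells made up 4.85, 3.99 and 4.72% in Young and 10.6, 6.42 and 3.60% in Aged, so that the ages overlapped (6.88 ± 3.54% in Aged, 4.52 ± 0.464% in Young, exact permutation p = 0.4). Among barcodes with at least 2000 UMIs that overlap ended, at 5.93 ± 2.13% in Aged and 3.82 ± 0.352% in Young (exact permutation p = 0.1). Both shares come from sorted and dissociated tissue, and how well each cell type survived the digestion was not measured here.

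**Figure D1:**
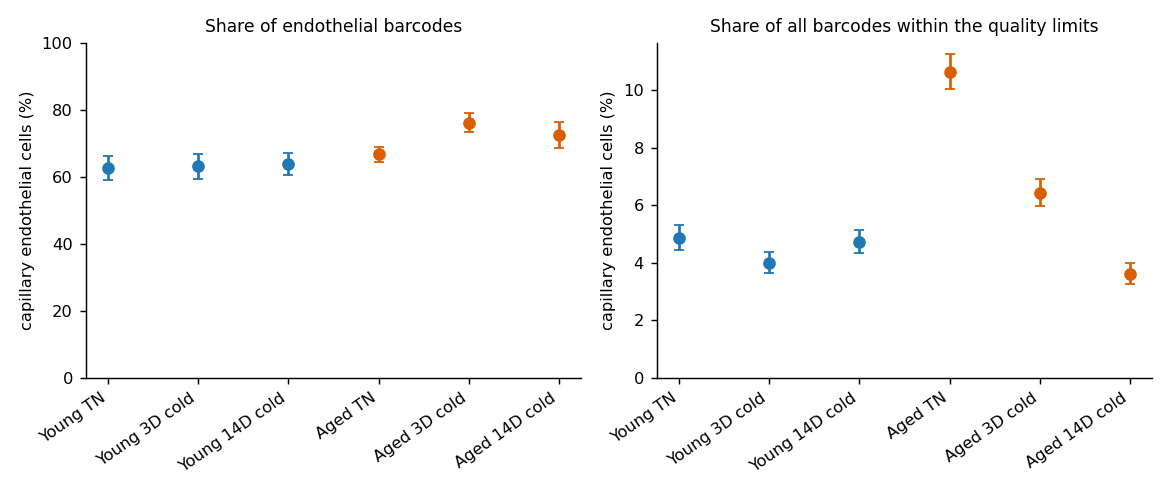
Capillary endothelial cells as a share (percent) of endothelial barcodes (left) and of all barcodes within the quality limits (right), 1 point per library (blue Young, orange Aged). Bars are exact 95% binomial intervals and cover counting error only. On the left the 3 Aged libraries, at 66.7 to 76.2%, lie above the 3 Young ones. That separation of all libraries was lost after thinning to 2000 UMIs and with at least 5 UMIs of Gpihbp1 and Car4. With the latter, Aged still lay above Young at each temperature. On the right Aged TN stands out at 10.6%.

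Some genes of fatty acid handling rose in capillary cells in the cold. UMIs were summed over the capillary cells of each library and tested across 9645 genes with edgeR's quasi-likelihood F test, with age as a term. At a Benjamini-Hochberg adjusted p under 0.05, 112 genes (1.16%) differed between temperatures. Of these, 76 (0.788% of the genes tested) had fitted values above TN at both cold times and 25 (0.259%) below it at both. The other 11 lay above TN at one time and below it at the other, and for some genes of each kind the value at one of the times lay within its SE. Mitochondrial genes, on which the rule selected, made up 5 of the 112, and without them and the genes of the rule 107 of 9624 genes (1.11%) passed, 71 (0.738%) above TN at both times and 25 (0.26%) below. Of 28 tested genes of fatty acid uptake and transport, 7 passed: Lpl, Cd36, Fabp4, Fabp5 and Pnpla2 rose at both times, Aqp1 fell at both, and Angptl4 was lower at 3D and higher at 14D. The median log2 fold change of this list was 0.19 at 3D and 0.23 at 14D, beside -0.01 and 0.00 for all genes tested. Leaving out the cells with 3 or more UMIs of other cell types' markers, 63.6 to 87.5% of a library's cells, left 3696 genes that could be tested, of which 10 differed between temperatures, 6 of them among the 112.

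Cd36, the membrane protein that takes up long-chain fatty acids (chr5:17781690-17888801, GRCm38), was at 3777, 4903 and 4897 CPM in Young and 3777, 5262 and 4984 in Aged. All 4 cold libraries lay above both TN libraries, with log2 fold changes of 0.45 ± 0.07 at 3D and 0.41 ± 0.07 at 14D, SE, edgeR adjusted p = 0.0193. Fabp4, a carrier of fatty acids within the cell, was at 52853, 63610.5 and 59833 CPM in Young and 56198, 72949.6 and 66479 in Aged, also above TN in every cold library. Fabp4 had log2 fold changes of 0.34 ± 0.04 at 3D and 0.23 ± 0.04 at 14D, SE, edgeR adjusted p = 0.0129. Its call was lost in some of the alternatives given in the last section. Lpl, the lipase that Gpihbp1 holds in place, was at 613, 868 and 829 CPM in Young and 668, 1031 and 801 in Aged, and it too did not overlap between TN and cold. Lpl had log2 fold changes of 0.59 ± 0.10 at 3D and 0.37 ± 0.10 at 14D, SE, edgeR adjusted p = 0.0476. Cd36 and Lpl are expressed by other cells of fat as well. Lpl stood at 1883 ± 372 CPM in fibroblasts, above its level in capillary cells, while Cd36 stood there at 63.2 ± 29.1 CPM.

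Pnpla2, the lipase that starts the breakdown of stored triglyceride, had the largest rise at 3D among the 7 that passed. It was at 183, 437 and 310.1 CPM in Young and 175, 507 and 295 in Aged, with log2 fold changes of 1.43 ± 0.12 at 3D and 0.78 ± 0.12 at 14D, SE, edgeR adjusted p = 0.00341. The highest level in either age was at 3D, and at 14D it lay between TN and 3D. Rbp7, a retinol-binding protein of fat endothelium outside that list, rose to a plateau (1324, 2000.1 and 1900.4 CPM in Young and 1376, 1872 and 1991 in Aged), and its fibroblast level was 2.27 CPM. Rbp7 had log2 fold changes of 0.54 ± 0.08 at 3D and 0.55 ± 0.08 at 14D, SE, edgeR adjusted p = 0.0157. Timp4, a metalloproteinase inhibitor and a marker of fat capillaries, peaked at 3D (855, 1612 and 943 CPM in Young and 1011, 1334 and 998.96 in Aged) and was back near TN at 14D. Timp4 had log2 fold changes of 0.68 ± 0.11 at 3D and 0.07 ± 0.11 at 14D, SE, edgeR adjusted p = 0.0299. With these, 4 of the 10 markers of fat capillaries outside the rule passed the test, beside 1.16% of all genes tested. Cd36, Fabp4 and Rbp7 were higher at both times and Timp4 at 3D, and none fell. The others did not pass, among them Tcf15 and Meox2, a pair of transcription factors known to drive fatty acid transport in such endothelium. Tcf15 was at 581, 434 and 539 CPM in Young and 630.2, 423 and 433 in Aged, and Meox2 at 221, 179 and 197 CPM in Young and 255, 180.1 and 197 in Aged.

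Angptl4, a secreted inhibitor of lipoprotein lipase, went the other way first, at 819.7, 704 and 1219 CPM in Young and 783, 552 and 1069 in Aged. In both ages 3D was the lowest and 14D the highest of the 3 temperatures, with log2 fold changes of -0.34 ± 0.09 at 3D and 0.53 ± 0.09 at 14D, SE, edgeR adjusted p = 0.00804. Aqp1, a water channel of capillaries, fell in steps, at 1817, 1256 and 1048 CPM in Young and 1776, 1504 and 1131 in Aged. Aqp1 had log2 fold changes of -0.36 ± 0.09 at 3D and -0.71 ± 0.09 at 14D, SE, edgeR adjusted p = 0.0176. Gpihbp1 and Car4, which chose the cells, are given without a test. Gpihbp1 was at 3872, 4569 and 4436 CPM in Young and 3671, 4581 and 4095 in Aged. Car4 was at 755, 851 and 1032 CPM in Young and 753, 938 and 902 in Aged. Other genes of lipid and mitochondrial metabolism that passed were Ucp2, a mitochondrial carrier (144, 255 and 214 CPM in Young and 126, 229 and 203 in Aged, edgeR adjusted p = 0.0119) and Cyp4b1, a fatty acid hydroxylase (log2 fold changes 0.33 and 0.61 at 3D and 14D, edgeR adjusted p = 0.0371). Plpp1, a lipid phosphatase (0.71 and 0.44, edgeR adjusted p = 0.0299), also passed, as did Hadha of fatty acid oxidation (0.48 and 0.75, edgeR adjusted p = 0.0362) and the endothelial lipase Lipg (0.90 and 1.54, edgeR adjusted p = 0.034). The call of Lipg was lost in 5 of 17 alternatives, among them DESeq2 (adjusted p = 0.088) and cells with at most 1 adipocyte UMI (edgeR adjusted p = 0.0585). Pparg, the nuclear receptor whose targets include several of these genes, did not pass, at 422, 491 and 481 CPM in Young and 405, 450.1 and 476 in Aged.

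**Figure D2:**
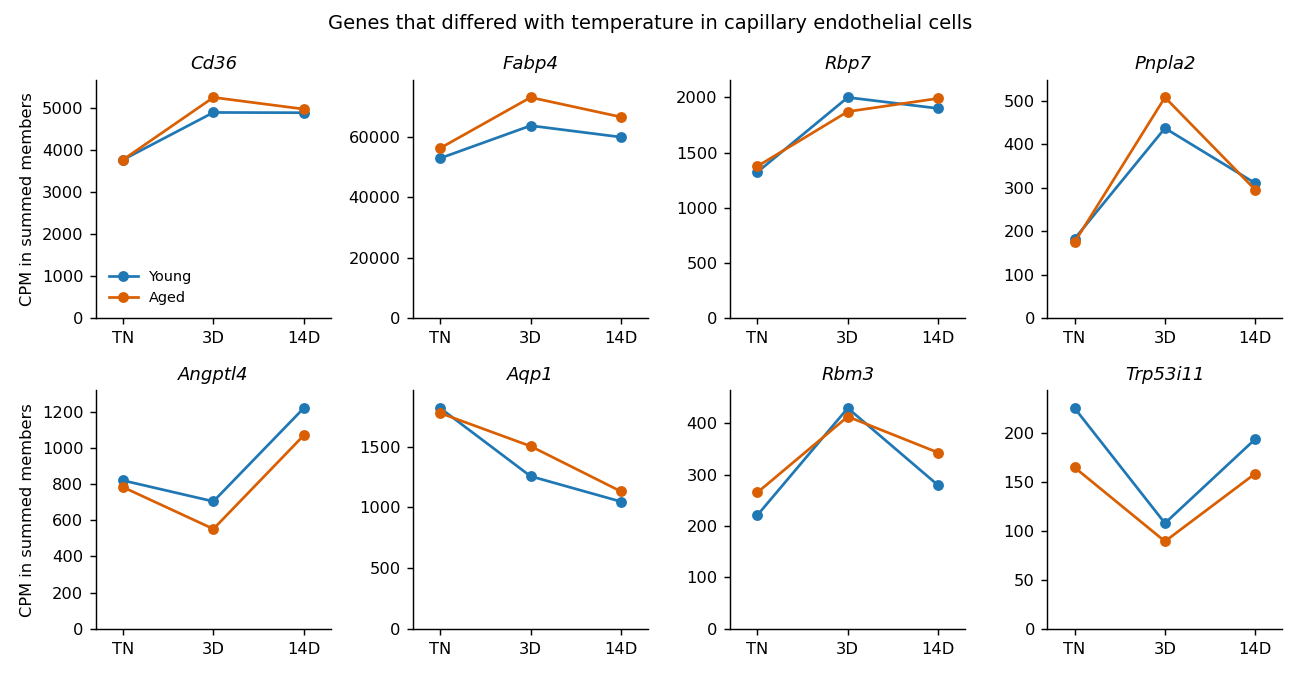
Level (CPM in the summed capillary cells, linear axes from 0) of 8 genes that differed between temperatures, by temperature and age, 1 point per library and no error bars because each age and temperature has 1 library. Cd36, Fabp4, Rbp7 and Pnpla2 are higher in all 4 cold libraries than at TN, Angptl4 is lowest at 3D and highest at 14D, Aqp1 falls at each step, and Rbm3 and Trp53i11 peak and dip at 3D.

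The promoter of Cd36 is shown because Cd36 rose in every cold library and because its promoter carries a nuclear receptor half-site, AGGTCA, of the kind that Pparg binds with its partner. The sequence is RefSeq's for GRCm38.p6, the 250 bases before an annotated start site, at chr5:17835897-17836146 on the minus strand. That start site lies inside the span given above for Cd36. The bases are written 5′ to 3′ along the gene, with the motif in capitals as its reverse complement TGACCT.
Cd36 promoter: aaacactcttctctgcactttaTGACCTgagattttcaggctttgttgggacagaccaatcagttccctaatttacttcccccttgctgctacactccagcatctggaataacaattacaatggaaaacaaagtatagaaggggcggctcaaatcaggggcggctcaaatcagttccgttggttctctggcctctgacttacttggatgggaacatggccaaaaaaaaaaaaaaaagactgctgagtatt
AGGTCA, searched on both strands in windows of 300 bases (250 before and 50 after the start), was in 11 of 94 promoters (11.7%) of the 75 temperature genes that RefSeq's table held and in 16.3% of all 32851 promoters. The promoters of Rbp7 and Pnpla2 did not hold these letters in the 250 bases before their starts. A match is only a run of letters and was not tested for binding.

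Several basement membrane genes were lower in Aged capillary cells and rose late in the cold. With temperature as a term, 19 of the 9645 genes (0.197%) differed between ages, 10 higher in Aged (0.104%) and 9 lower (0.0933%). Without the temperature term 0 genes passed, and without the cells rich in other markers 5 of the 3696 genes tested there did, of which 2 were among the 19. Of 18 tested basement membrane genes, 3 were lower in Aged (Col4a1, Col4a2 and Sparc), none was higher, and the list's median log2 fold change was -0.27 beside 0.00 for all genes tested. Between temperatures 5 of the 18 passed: Col4a1, Col4a2, Sparc, Col15a1 and Igfbp7 were all higher at 14D (1.16% of all genes tested passed), and at 3D the fitted values of all but Sparc lay within 1 SE of TN.

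Col4a1, a chain of collagen IV (chr8:11198423-11312826), was at 950.2, 959 and 1358 CPM in Young and 613, 545 and 954 in Aged. At each temperature the Aged level was the lower one (log2 fold change -0.62 ± 0.08, SE, edgeR adjusted p = 0.0254). In both ages the level changed little at 3D and rose at 14D. Col4a1 had log2 fold changes of -0.05 ± 0.09 at 3D and 0.59 ± 0.09 at 14D, SE, edgeR adjusted p = 0.0159. Its partner chain Col4a2 (chr8:11312805-11449287) was at 572, 619 and 826 CPM in Young and 393, 358 and 571 in Aged. The age comparison of Col4a2 gave a log2 fold change -0.59 ± 0.08, SE, edgeR adjusted p = 0.034. For temperature it had log2 fold changes of 0.01 ± 0.10 at 3D and 0.55 ± 0.10 at 14D, SE, edgeR adjusted p = 0.0362. These neighbouring genes are transcribed in opposite directions from start regions that overlap in the annotation by 22 bases (RefSeq, GRCm38.p6, chr8:11312805-11312826, plus strand, which is the strand of Col4a2), shown because the pair moved together.
Col4a1 and Col4a2 overlap: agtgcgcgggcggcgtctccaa

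Sparc, a collagen-binding matrix protein, was at 3683, 4443 and 5576 CPM in Young and 2282, 2381 and 3954 in Aged. Its age comparison gave a log2 fold change -0.66 ± 0.07, SE, edgeR adjusted p = 0.0123. Between temperatures Sparc had log2 fold changes of 0.19 ± 0.09 at 3D and 0.72 ± 0.09 at 14D, SE, edgeR adjusted p = 0.0107. The Aged level at 14D exceeded the Young level at TN, so the ages overlapped over all temperatures while every Aged library was below the Young one of its temperature. Igfbp7, an abundant vascular matrix protein, rose at 14D (1997, 2142 and 2626 CPM in Young and 1675, 1617 and 2161 in Aged, edgeR adjusted p = 0.0478) and was not called with age, at a log2 fold change of -0.28 (edgeR adjusted p = 0.114). Fibroblasts held more of Sparc (7239 ± 3144 CPM) and Col4a1 (1796 ± 337 CPM) than capillary cells. Col4a2 stood there at 718 ± 127 CPM, and its capillary level was 81.2 to 135% of the fibroblast level in Young but 41.2, 51.9 and 86.1% in Aged. Sparc was lower in Aged in fibroblasts too (11617, 6479 and 10444 CPM in Young and 6185, 3453 and 5253 CPM in Aged), and Col4a1 was not (1721 ± 191 and 1871 ± 480 CPM, SD, n = 3 libraries). Fibroblast markers stood in capillary cells at 1.05 to 2.90% of the fibroblast level. Their sum in capillary cells was also lower in Aged at each temperature and highest at 14D (1288, 1545 and 1635 CPM in Young and 811, 1071 and 1587 CPM in Aged). Col15a1 was at least 5-fold more abundant in fibroblasts. The part of fibroblast RNA in the differences of these basement membrane genes was not tested.

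Fabp5, an intracellular carrier of fatty acids (chr3:10012548-10016607), had the smallest p in both the age and the temperature comparison. Its level was 2266, 3109 and 4472 CPM in Young and 1312, 1895 and 2854 in Aged, rising at each step of cold in both ages and lower in Aged at each temperature. The age comparison gave a log2 fold change -0.68 ± 0.06, SE, edgeR adjusted p = 0.0033, and the cold gave log2 fold changes of 0.52 ± 0.07 at 3D and 1.07 ± 0.07 at 14D, SE, edgeR adjusted p = 0.00124. Fibroblasts held 16.3 ± 3.52 CPM, and the age effect differed between capillary cells and fibroblasts in the test of that difference (log2 difference -1.17 ± 0.21, SE, edgeR adjusted p = 0.0298). Its close relative Fabp4 was higher in Aged at all 3 temperatures by a log2 fold change of 0.18 that did not pass (edgeR adjusted p = 0.0812). Besides Fabp5, Sparc, Col4a1, Col4a2, Ppp1r10, Crispld2, Pi16, Col1a2 and Ucp1 passed for both age and temperature, 9 genes in all.

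Other genes lower in Aged capillary cells were few. H1f0, a linker histone that accumulates in resting cells, was at 113, 115 and 124 CPM in Young and 68.6, 72.1 and 63.2 in Aged, without overlap between ages (log2 fold change -0.74 ± 0.11, SE, edgeR adjusted p = 0.034). Ackr3, a scavenging receptor for the chemokine Cxcl12, was at 112, 129 and 157 CPM in Young and 66.7, 86.3 and 99.4 in Aged, again without overlap (log2 fold change -0.63 ± 0.10, SE, edgeR adjusted p = 0.0435). The age call was lost in 5 alternatives for Ackr3 (kept in 13) and in 3 for H1f0 (kept in 15). Among them was DESeq2, which gave no adjusted p for either gene. In fibroblasts Ackr3 stood at 903 ± 84.5 CPM. Pi16 and Col1a2, genes of fibroblasts, were lower in Aged by log2 fold changes of -1.21 (edgeR adjusted p = 0.034) and -0.98 (edgeR adjusted p = 0.0398) and made up 1.43 to 3.58% and 0.927 to 2.89% of their fibroblast level in the same library. In fibroblasts themselves Pi16 stood at 2195, 2163 and 2563 CPM in Young and 966, 1282 and 1504 CPM in Aged, so it was lower in Aged there too. Ucp1, the uncoupling protein of beige adipocytes, had 1, 111 and 40 UMIs in Young and 2, 32 and 1 in Aged in the summed cells and is described with the adipocyte markers.

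The genes higher in Aged capillary cells did not fall into 1 pathway of the lists used. Slc6a6, the taurine transporter, was at 210.1, 324 and 272 CPM in Young and 371, 550.2 and 364 in Aged, every Aged library above every Young one (log2 fold change 0.71 ± 0.10, SE, edgeR adjusted p = 0.034). Pltp, which transfers phospholipids between lipoproteins, was at 213, 240.1 and 212 CPM in Young and 353, 350.5 and 289 in Aged, also without overlap (log2 fold change 0.61 ± 0.09, SE, edgeR adjusted p = 0.034). Its age effect was larger in fibroblasts, where Pltp was at 74.4 ± 7.48 CPM in Young and 226 ± 26.2 CPM in Aged (log2 difference -0.96 ± 0.18, SE, edgeR adjusted p = 0.0376). S100a6, a calcium-binding protein that fibroblasts hold at 4320.2 ± 572 CPM, was at 653, 805 and 543 CPM in Young and 1011, 1032 and 1037 in Aged (log2 fold change 0.67 ± 0.10, SE, edgeR adjusted p = 0.034).

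Mat2a, which makes the methyl donor S-adenosylmethionine, rose with age (404, 376 and 318 CPM in Young and 549, 562 and 452 in Aged, log2 fold change 0.54 ± 0.08, SE, edgeR adjusted p = 0.034). The small GTPase Arl4d rose as well (41.0, 40.9 and 27.4 CPM in Young and 70.8, 66.7 and 53.9 in Aged, log2 fold change 0.84 ± 0.13, SE, edgeR adjusted p = 0.0404), and neither gene overlapped between ages. Sncg, a synuclein of fat and nerve, was at 189, 107 and 92.3 CPM in Young and 256, 175 and 195 in Aged (log2 fold change 0.75 ± 0.12, SE, edgeR adjusted p = 0.0459). Ppp1r10, a regulatory subunit of protein phosphatase 1, was at 325, 229.5 and 167 CPM in Young and 425, 342 and 294 in Aged (log2 fold change 0.62 ± 0.10, SE, edgeR adjusted p = 0.0435). Sncg and Ppp1r10 were higher in Aged at each temperature, and their Young TN level exceeded the lowest Aged level. Prg4, a lubricating proteoglycan, had few UMIs (16, 12 and 16 UMIs in Young and 89, 52 and 33 in Aged, log2 fold change 1.55, edgeR adjusted p = 0.034). So did the atypical protein kinase Prkcz (5, 4 and 6 UMIs in Young and 36, 25 and 25 in Aged, log2 fold change 2.19, edgeR adjusted p = 0.0404). The secreted Crispld2 was uneven (23, 10 and 9 UMIs in Young and 214, 30 and 24 in Aged, log2 fold change 1.94, edgeR adjusted p = 0.0254). In Crispld2 a single barcode held 49 of the 214 UMIs of Aged TN and 23 of the 30 of Aged 3D. The age call was lost in 6 alternatives for Prg4 (kept in 11), 5 for Arl4d (kept in 13) and 5 for Crispld2 (kept in 10). Among them was DESeq2, which gave no adjusted p for these genes. With cold Crispld2 had log2 fold changes of -2.03 and -1.74 at 3D and 14D, the largest fall at 3D (edgeR adjusted p = 0.0107). Of the 19 age genes, 5 (Crispld2, S100a6, Pi16, Col1a2 and Ackr3) were at least 5-fold more abundant in fibroblasts, and the part of fibroblast RNA in their levels was not tested. The share of genes so much more abundant in fibroblasts among all genes tested was not counted.

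**Figure D3:**
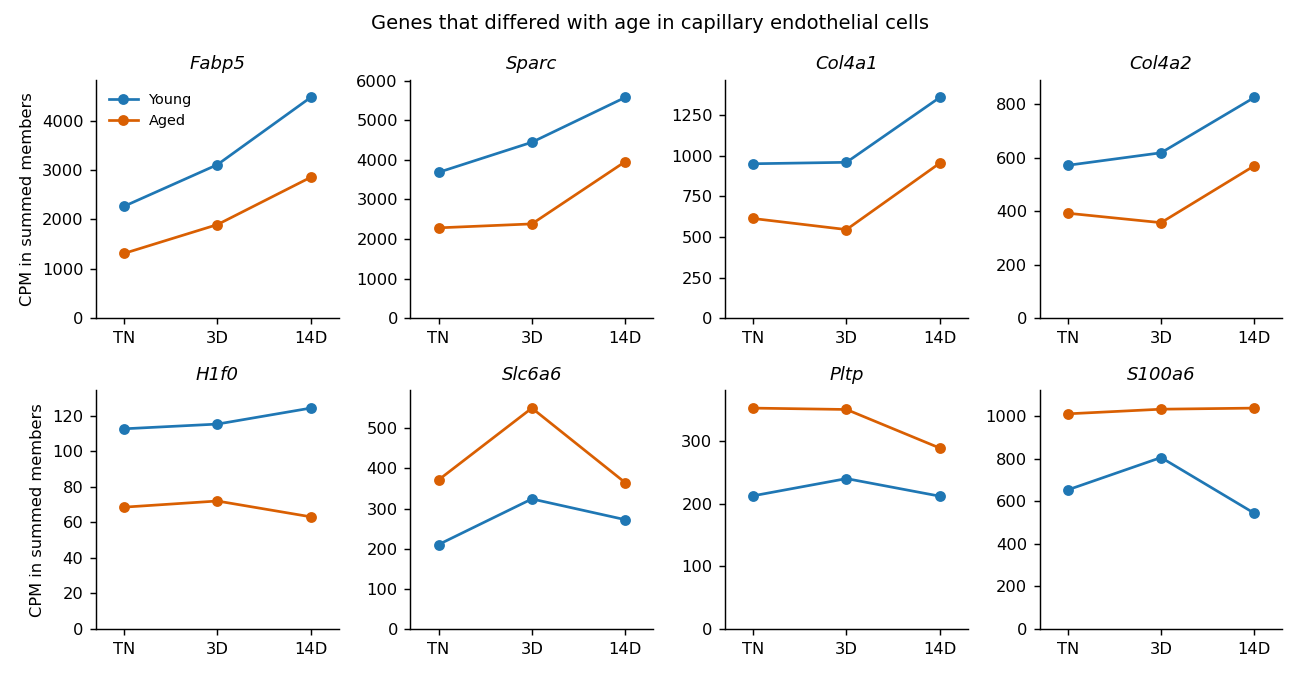
Level (CPM in the summed capillary cells, linear axes from 0) of 8 genes that differed between ages, by temperature, 1 point per library (blue Young, orange Aged) and no error bars because each age and temperature has 1 library. Fabp5, Sparc, Col4a1, Col4a2 and H1f0 are lower and Slc6a6, Pltp and S100a6 higher in Aged at each of the 3 temperatures.

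The cold response of capillary cells was not shown to differ between ages. With 3D and 14D pooled as cold, edgeR's test of the age by cold interaction called 0 of 10204 genes (0%), 277 genes had an unadjusted p under 0.05, and DESeq2 called 1. That gene, Tyrobp, an adaptor of immune cells, had 37, 0 and 1 UMIs in Young and 6, 29 and 26 in Aged, and in 2 of these libraries a single barcode held 22 of the 37 and 28 of the 29. For the 9 genes that passed for both age and temperature, the interaction's log2 values ran from -2.39 (Ucp1) to 0.48 (Pi16), all at an edgeR adjusted p of 1.00. A miss in this design, with 2 residual degrees of freedom, does not show that the responses were alike.

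Several other cold genes were at their highest or lowest at 3D. Rbm3, an RNA-binding protein induced by mild hypothermia, was at 221, 429 and 279 CPM in Young and 265, 413 and 343 in Aged, above TN in all 4 cold libraries. Rbm3 had log2 fold changes of 0.82 ± 0.11 at 3D and 0.37 ± 0.11 at 14D, SE, edgeR adjusted p = 0.0193. Its relative Cirbp rose at 3D and was below TN at 14D, at 61.3, 75.1 and 38.5 CPM in Young and 65.1, 89.4 and 47.0 in Aged. Cirbp had log2 fold changes of 0.41 ± 0.13 at 3D and -0.54 ± 0.15 at 14D, SE, edgeR adjusted p = 0.0368. The chaperone Hsp90ab1 dipped at 3D in both ages (2911, 2112 and 3179.9 CPM in Young and 2846, 2146 and 2820.5 in Aged). Hsp90ab1 had log2 fold changes of -0.41 ± 0.08 at 3D and 0.08 ± 0.08 at 14D, SE, edgeR adjusted p = 0.0337. Cacybp, a binding partner of calcyclin, dipped likewise (log2 fold changes -0.44 and 0.23, edgeR adjusted p = 0.0479). Rbm3, Cirbp, Hsp90ab1 and Cacybp were picked out after their values were seen. Dbp and Tef, related transcription factors driven by the circadian clock, were the only 2 of 12 tested clock genes to pass, beside 1.16% of all genes tested. Dbp had 3, 34 and 10 UMIs in Young and 8, 60 and 5 in Aged, and Tef had 15, 44 and 21 UMIs in Young and 48, 72 and 23 in Aged, in both cases most at 3D. The time of day at which the mice were killed is not given in the sources used here. The nuclear RNAs Neat1 and Malat1 went opposite ways, Neat1 up (log2 fold changes 0.51 and 0.51, edgeR adjusted p = 0.0327) and Malat1 down (-0.40 and -0.19, edgeR adjusted p = 0.0298).

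Among the 25 genes with fitted values below TN at both cold times were the transcription factor Hhex, the ligand Gas6 and enzymes of the cell surface. Trp53i11, a transcript induced by p53, was at 225, 108 and 194 CPM in Young and 165, 89.4 and 159 in Aged, lowest at 3D in both ages and partly back at 14D. Trp53i11 had log2 fold changes of -0.95 ± 0.11 at 3D and -0.12 ± 0.11 at 14D, SE, edgeR adjusted p = 0.0107. Hhex, a homeobox transcription factor of endothelium, fell in the same shape (69.8, 35.4 and 47.9 CPM in Young and 62.6, 32.0 and 43.1 in Aged, edgeR adjusted p = 0.0368). The call of Hhex was lost in 7 of 18 alternatives, among them DESeq2 (adjusted p = 0.429) and cells with at most 1 adipocyte UMI (edgeR adjusted p = 0.11). Gas6, a ligand of the Axl and Mertk receptors, was at 142, 70.7 and 58.4 CPM in Young and 134, 88.5 and 77.02 in Aged. Gas6 had log2 fold changes of -0.76 ± 0.14 at 3D and -1.01 ± 0.15 at 14D, SE, edgeR adjusted p = 0.0195. Igfbp3, which binds insulin-like growth factors, was at 112, 81.9 and 46.1 CPM in Young and 101, 48.5 and 52.4 in Aged (edgeR adjusted p = 0.0421) and like Gas6 lay below TN in every cold library. Afdn, a scaffold of adherens junctions, also fell (log2 fold changes -0.60 and -0.41, edgeR adjusted p = 0.0357), as did the growth factor Hbegf (-0.73 and -0.73, edgeR adjusted p = 0.0361). Nnat, an imprinted membrane protein, also expressed by adipocytes, had the largest fall at 14D, with 94, 17 and 5 UMIs in Young and 189, 58 and 16 in Aged. Nnat had log2 fold changes of -1.61 ± 0.30 at 3D and -2.99 ± 0.39 at 14D, SE, edgeR adjusted p = 0.0124, and 1 barcode held 18 of the 94 UMIs of Young TN. In capillary cells with at most 1 UMI of the adipocyte markers described below, Nnat had 2, 0 and 0 UMIs in Young and 16, 0 and 0 in Aged, too few to be tested. Rarres1, Gm26669, Gm13889 and Hp also fell (log2 fold changes at 3D of -1.61, -1.01, -1.71 and -0.62, and at 14D of -0.76, -0.66, -0.41 and -1.52), and the cell surface protein Cd24a fell at 14D (-1.55). The call was lost in 8 of 17 alternatives for Rarres1 (DESeq2 adjusted p = 0.452), 7 of 18 for Gm26669 (DESeq2 adjusted p = 0.0974) and 6 of 17 for Cd24a (DESeq2 adjusted p = 0.316). The fall of Gm13889 at 3D was -0.43 after thinning to 2000 UMIs (edgeR adjusted p = 0.737) and turned to 0.38 without the deepest 5% of cells (edgeR adjusted p = 0.292).

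Alpl (alkaline phosphatase), Entpd1 (the ectonucleotidase CD39), Stmn2 and Fbln2 were at their lowest at 14D. Stmn2, a regulator of microtubules, was at 59.4, 83.8 and 31.0 CPM in Young and 107, 74.3 and 35.4 in Aged. It had log2 fold changes of -0.08 ± 0.20 at 3D and -1.32 ± 0.24 at 14D, SE, edgeR adjusted p = 0.0479. Alpl was at 25.7, 26.7 and 7.01 CPM in Young and 43.4, 27.1 and 13.1 in Aged. Its cold values were log2 fold changes of -0.37 ± 0.22 at 3D and -1.80 ± 0.28 at 14D, SE, edgeR adjusted p = 0.0368. Entpd1 was at 34.9, 22.3 and 14.0 CPM in Young and 36.2, 15.6 and 10.8 in Aged, with log2 fold changes of -0.93 ± 0.21 at 3D and -1.51 ± 0.25 at 14D, SE, edgeR adjusted p = 0.0351. The matrix protein Fbln2 was at 93.1, 66.4 and 46.7 CPM in Young and 126, 94.7 and 60.1 in Aged. Fbln2 had log2 fold changes of -0.42 ± 0.12 at 3D and -1.01 ± 0.13 at 14D, SE, edgeR adjusted p = 0.0193. For Stmn2, Alpl and Fbln2 the 14D library was the lowest of its age in both ages, and for Entpd1 every cold library lay below both TN ones. All 4 genes were also lower in cells with a Car4 UMI, described next. Of the 25 genes below TN at both cold times, 6 were lower with Car4 in 6 of 6 libraries and 2 were higher. Over all 9645 genes tested, 447 (4.63%) were lower in this way, and the share that was higher in this way was not counted. Detection of Car4 was lowest at TN in both ages and the sum of the arterial markers lowest at 14D, and the part of such a shift among the cells in these falls was not tested. The call was lost in 6 of 18 alternatives for Alpl and 5 of 18 each for Entpd1 and Fbln2, with DESeq2 among them for all 3 (adjusted p = 0.0941 for Alpl and 0.261 for Entpd1).

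The capillary cells were not uniform, and detection of Car4 varied among them. After each cell was thinned to 2000 UMIs, leaving 301 to 786 cells per library, Gpihbp1 was detected in 98.1 to 99.7% of cells, but Car4 in 66.6, 74.1 and 79.5% of Young and 64.1, 74.3 and 75.7% of Aged cells (unthinned, 74.3 to 84.6%). The TN library was the lowest of its age in both ages. Splitting the cells on a gene that chose them gives a description and no test, and a cell without a Car4 UMI at this depth may still express the gene. Some fat capillary genes were higher where Car4 was seen. Cd36 was at 5052 ± 715 CPM with and 4065 ± 573 CPM without (mean ± SD, n = 6 libraries). Lpl was at 944 ± 179 CPM with and 609 ± 137 CPM without, and Timp4 at 1303 ± 297 CPM with and 922 ± 222 CPM without, each higher in 6 of 6 libraries, while Pnpla2 was higher in 4 of 6. Likewise higher were Bmp6 (122 ± 23.3 CPM with and 64.1 ± 13.4 CPM without), Adora2a (129 ± 29.9 CPM with and 60.7 ± 26.1 CPM without), and Gpr182 (71.8 ± 14.96 CPM with and 32.8 ± 8.86 CPM without). The fat capillary marker Rbp7 was higher with Car4 in only 1 of 6 libraries, at 1757 ± 418 CPM with and 1911 ± 266 CPM without.

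Of the 8 arterial markers, 5 (Gja4, Gja5, Hey1, Fbln5 and Sema3g) were lower in cells with a Car4 UMI in 6 of 6 libraries, and Sox17, Efnb2 and Bmx were not. Over all 9645 genes tested for temperature, 447 (4.63%) were lower in this way. Gja4, a connexin of arterial endothelium, was at 106 ± 42.6 CPM in cells without a Car4 UMI and 10.9 ± 5.67 CPM in cells with one, and Gja5, another such connexin, at 28.1 ± 3.29 and 1.43 ± 1.63 CPM. Edn1, the vasoconstrictor endothelin, was at 88.4 ± 22.3 CPM in cells without a Car4 UMI and 7.60 ± 5.44 CPM in cells with one. In the same order the elastic fibre protein Fbln5 was at 416 ± 88.5 and 60.4 ± 17.2 CPM, and the Notch target Hey1 at 108 ± 33.5 and 29.4 ± 11.5 CPM. Sox17, an arterial transcription factor, was at 465 ± 91.4 CPM in cells without a Car4 UMI and 464 ± 75.9 CPM in cells with one. Vegfc, Clu, Col8a1, Stmn2, Alpl and Entpd1 were likewise lower with Car4 in 6 of 6 libraries. Of 3319 genes of at least 50 CPM in 1 of the 2 groups, 221 were higher and 284 lower with Car4 in 6 of 6.

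**Figure D4:**
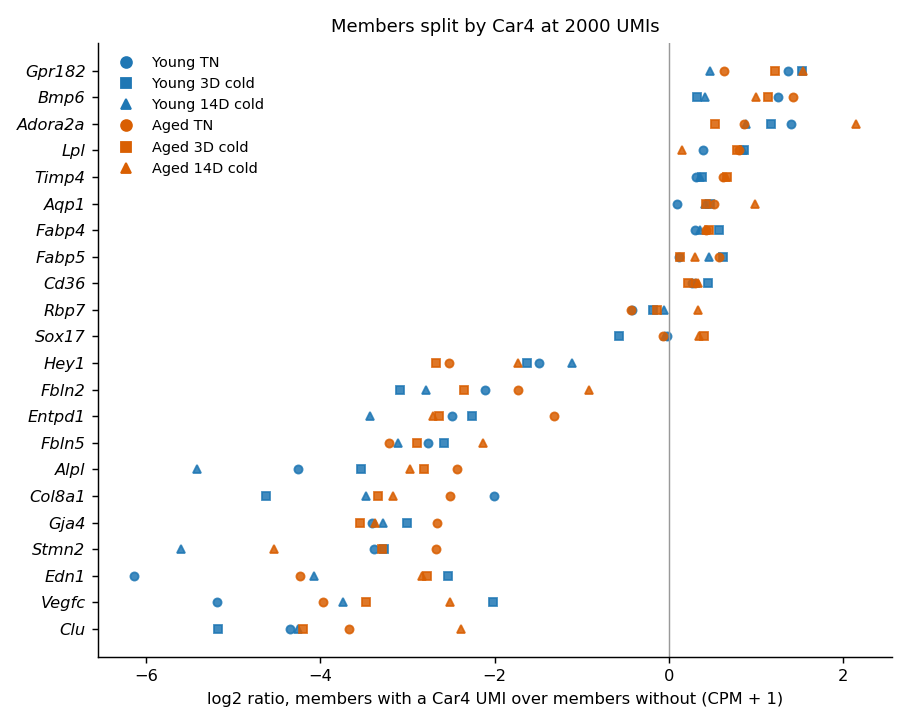
Log2 ratio, on CPM + 1, of 22 genes between capillary cells with and without a Car4 UMI after thinning to 2000 UMIs, 1 symbol per library (blue Young, orange Aged, circle TN, square 3D, triangle 14D). Cd36, Fabp4, Fabp5, Lpl, Aqp1, Timp4, Bmp6, Adora2a and Gpr182 lie to the right of 0, Gja4, Edn1, Fbln5, Hey1 and others lie to the left in every library, and Sox17 and Rbp7 straddle 0.

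UMIs of adipocyte marker genes were present in part of the capillary cells, and whether they came from adipocytes was not tested. Their sum was highest at 3D in both ages. At 14D it lay below TN in Young and above TN in Aged. The 7 adipocyte markers, led by Car3, summed to 1565, 2115 and 849 CPM in Young and 1422, 2751 and 1915 CPM in Aged in capillary cells, and none of the 7 was at 0. In fibroblasts they summed to 18.4, 19.8 and 29.3 CPM in Young and 24.96, 41.1 and 45.1 CPM in Aged. At least 6 such UMIs were found in 19.95, 29.2 and 11.2% of Young and 21.1, 31.1 and 26.1% of Aged capillary cells, and these cells held 74.5 to 92.6% of all adipocyte marker UMIs. At 2000 UMIs per cell the share was 7.82 to 27.2% of capillary cells and 0.0778 to 0.254% of fibroblasts of the same libraries. The 3D library had the highest share in both ages, and 14D the lowest in Young only. Ucp1 had 1, 111 and 40 UMIs in Young and 2, 32 and 1 in Aged, of which 1 barcode held 16 of the 32 in Aged 3D, with a log2 fold change of 5.59 at 3D. The mitochondrial Cox8b had 8, 103 and 45 UMIs in Young and 4, 91 and 37 in Aged. Some enzymes of lipid synthesis were among the genes named for the size of their change, and were not tested as a list. Me1 had log2 fold changes of 2.54 and 1.69 and Fasn of 2.10 and 1.21, each at 3D and 14D. Gpd1 had 2.23 and 0.53, Agpat2 2.18 and 1.22, Scd1 1.97 and 1.95 and the hydrolase Ephx2 1.71 and 1.30.

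The comparison was repeated, as an alternative added after seeing the data, in capillary cells with at most 1 adipocyte UMI (189 to 644 per library). There 173 of 8386 genes (2.06%) differed between temperatures, 92 (1.1%) higher and 45 (0.537%) lower at both cold times, and 64 (0.763%) differed between ages. The 173 held all 8 pericyte and smooth muscle markers, against 2 of 8 in all capillary cells, and 4 genes of the rule, from which nothing is read. The 64 held all 4 red cell markers and 4 of 7 tested fibroblast markers, against 0 of 4 and 2 of 8 in all capillary cells. The part of RNA from such cells in these calls was not tested. Of the 112 temperature genes 105 could be tested there, 98 kept their direction at both times, 77 passed again and 71 did both. Cd36 kept log2 fold changes of 0.46 and 0.43, Fabp5 of 0.51 and 1.09, Pnpla2 of 1.32 and 0.77, Lpl of 0.51 and 0.45 and Aqp1 of -0.30 and -0.55, all past the threshold. Scd1 shrank at 3D, from 1.97 to 0.68, and Cdo1, an enzyme of taurine synthesis, from 1.84 to 0.18. Fasn, Me1, Gpd1, Agpat2, Ephx2, Cdo1, Thrsp, Mdh1, Mpc1 and Mpc2 did not pass in these cells. Gpd1 had log2 fold changes of 1.72 and 1.89 there, Ephx2 1.32 and 0.67, Agpat2 1.17 and 1.05, Me1 0.87 and 1.57 and Fasn 0.76 and 1.41 at 3D and 14D. Ucp1 did not shrink at 3D, with log2 fold changes of 5.70 and 4.53 (edgeR adjusted p = 0.000437), with 0, 49 and 34 UMIs in Young and 1, 3 and 1 in Aged, so that its UMIs there came mostly from the Young cold libraries. The part of adipocyte RNA in the temperature differences was otherwise not tested. All 19 age genes kept their direction there and 18 passed, the exception being Prg4. Fabp4 passed there for age (log2 fold change 0.16, edgeR adjusted p = 0.0367). With at most 1 pericyte and 1 immune UMI required as well, also chosen after seeing the data (159 to 579 cells per library), 25 of 7658 genes (0.326%) differed between ages and 84 (1.1%) between temperatures. Of the 19 age genes 18 could be tested there, all 18 kept their direction and 10 passed, while Ackr3, Arl4d, Mat2a, Pi16, Pltp, Prg4, Prkcz and Sncg did not. Of the 112 temperature genes 93 could be tested there, 86 kept their direction at both times, 50 passed and 45 did both.

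**Figure D5:**
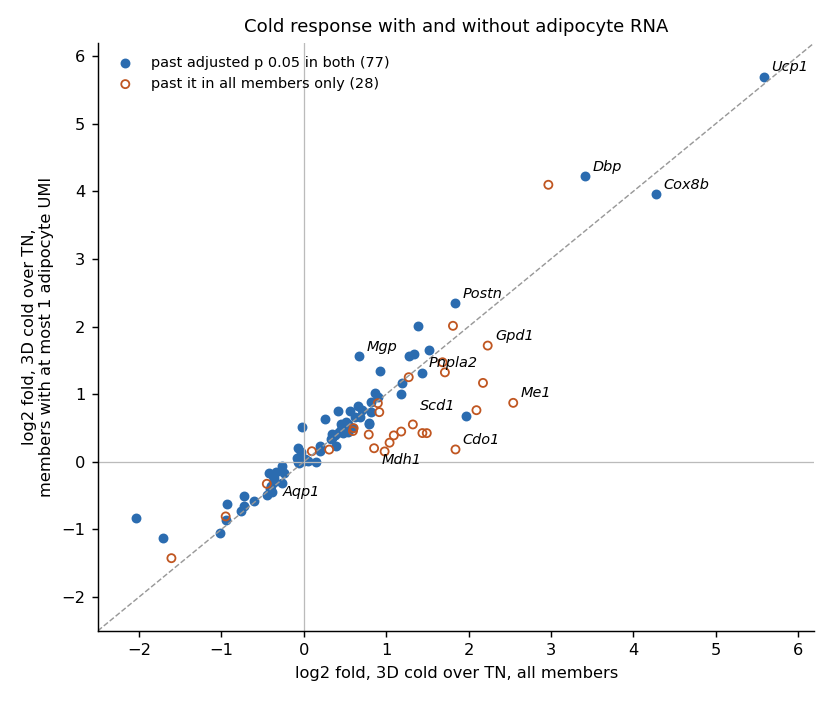
Log2 fold change from TN to 3D cold of the 105 temperature genes that could be tested in both, in all capillary cells (x axis) and in those with at most 1 adipocyte marker UMI (y axis). Filled points (77) passed adjusted p 0.05 in both, open points (28) in all cells only, the dashed line marks equal change, and Scd1, Me1 and Cdo1 lie below it.

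Markers of other cell types varied between libraries as well, and none of the red cell, pericyte, immune and fibroblast markers listed was without a UMI in capillary cells. Hemoglobin and the other red cell transcripts summed to 259.8, 3302 and 108 CPM in Young and 4662, 3125 and 73.2 CPM in Aged, and a single barcode held 1840 of the 2438 Hbb-bs UMIs of Young 3D. Pericyte and smooth muscle markers, led by Rgs5, summed to 778, 1163 and 705 CPM in Young and 953, 659 and 657 CPM in Aged, and 2 of 8 passed for temperature (1.16% of all genes tested did), Abcc9 and Pdgfrb, both highest at 3D. The 8 immune markers, led by Cd68, summed to 50.8, 20.5 and 25.7 CPM in Young and 22.02, 22.7 and 221 CPM in Aged. For Cd79a, the only one that passed, 1 barcode held 13 of 17 UMIs in Young 14D and 14 of 22 in Aged 14D. Fibroblast markers summed to 1288, 1545 and 1635 CPM in Young and 811, 1071 and 1587 CPM in Aged, led by Gsn, and 3 of 8 passed for temperature, against the same 1.16%. Of the 112 temperature genes 19, among them Gsn, Timp2, Igfbp6 and Ccl2, were at least 5-fold higher in fibroblasts. Of these 19, 17 rose at both times, against 59 of the other 93. The median log2 fold changes of the 19 were 0.56 at 3D and 1.11 at 14D, against 0.51 and 0.44 for the other 93. The share of genes so much higher in fibroblasts among all genes tested was not counted. The part of these RNAs in the temperature differences was not tested.

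The other lists held few changes. None of the 12 endothelial markers, 13 Notch, 17 TGF-beta and BMP, 10 junction, 16 flow and vascular tone, 16 MHC class I, 29 interferon-stimulated, 7 leukocyte adhesion and 20 immediate early and heat shock genes tested passed for age or for temperature. Nor did any of the 12 glucocorticoid-responsive, 17 glycolysis and 9 cell cycle genes, the 7 arterial or the 4 venular markers, or the single lymphatic, Schwann and MHC class II genes that could be tested. Over all genes tested 1.16% passed for temperature and 0.197% for age. Of 18 tested genes of VEGF and angiopoietin signalling 1 passed, the co-receptor Nrp2, which rose at 14D (173, 166 and 262 CPM in Young and 152, 154 and 220.3 in Aged). Nrp2 had log2 fold changes of 0.01 ± 0.11 at 3D and 0.59 ± 0.11 at 14D, SE, edgeR adjusted p = 0.0371. Apln, the apelin peptide of vessel tips, had 19, 62 and 96 UMIs in Young and 29, 24 and 28 in Aged and did not pass (edgeR adjusted p = 0.053 for temperature and 0.0905 for age). Of 13 genes of senescence and the p53 response Igfbp3 passed, and Cdkn1a, a cell cycle inhibitor, did not (1783, 1509 and 1309 CPM in Young and 2010.0, 2164 and 1589.7 in Aged, edgeR adjusted p = 0.118 for age). Of 12 insulin and IGF genes Igfbp3 fell and Igfbp7 rose with cold, and of 10 imprinted growth genes Nnat fell. These counts too stand beside 1.16% of all genes tested. The median mitochondrial share was 1.95, 2.85 and 3.13% in Young and 2.42, 3.06 and 3.05% in Aged capillary cells, and the 5 mitochondrial genes among the 112 are not described further.

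Cell cycle transcripts were sparse in capillary cells. At 2000 UMIs, at least 2 UMIs of 20 cell cycle genes were found in 3.65 to 6.25% of capillary cells. The means were 5.4 ± 1.16% in Young and 4.61 ± 0.912% in Aged (SD, n = 3 libraries), and the ages overlapped (two-sided exact permutation p = 0.4). Fibroblasts of the same libraries, at the same depth, were at 0.844 to 1.42%. The direction turned with the limit: with at least 1 UMI the Aged share was the higher one, by 3.36 percentage points (exact permutation p = 0.2).

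Against the 215 Plvap+ Lrg1+ cells, capillary cells differed in many genes beyond those that separate the classes by rule, given here as a description because both were cut from the same cells. Higher in capillary cells were the adenosine receptor Adora2a (113 ± 21.7 against 0.841 ± 2.06 CPM, mean ± SD, n = 6 libraries) and Bmp6 (95.7 ± 15.6 against 2.51 ± 4.21 CPM). So were the natriuretic peptide clearance receptor Npr3 (92.7 ± 15.3 against 3.097 ± 5.77 CPM), the glycerol channel Aqp7 (568 ± 39.3 against 19.96 ± 13.2 CPM) and the chemokine Cxcl9 (515 ± 82.5 against 11.8 ± 7.83 CPM). Lower were the membrane collagen Col13a1 (1.19 ± 1.79 against 390.3 ± 84.2 CPM) and the prostaglandin transporter Slco2a1 (2.09 ± 1.28 against 474 ± 136 CPM). So were the proteoglycan endocan, Esm1 (1.04 ± 0.996 against 250 ± 118 CPM) and the opioid precursor Penk (2.02 ± 0.817 against 300.5 ± 269.6 CPM). Of 3576 genes of at least 50 CPM in 1 of the classes, 627 were higher and 576 lower in 6 of 6 libraries. The higher ones include marker genes of adipocytes and red cells, such as Car3 (835 ± 356 against 78.0 ± 124 CPM) and Hbb-bs (935 ± 1013 against 3.84 ± 5.39 CPM). The part of RNA from such cells in the difference was not tested. The Plvap+ Lrg1+ class held 9 to 84 cells per library, so its values are less precise. The test of a difference of the age effect between the classes called 5 of 9478 genes (0.0528%), Igkc, H2-Aa, Cd74, S100a9 and Meg3, and that between capillary cells and fibroblasts called 33 of 14818 (0.223%). Of the 19 age genes, Fabp5 and Pltp were among those 33 and none was among the 5.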

How the data were processed

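Live CD45- cells of the iWAT stromal vascular fraction were sequenced with the 10x Genomics 3′ v3.1 kit, and the deposited matrices hold UMI counts per gene and barcode, made by the authors with Cell Ranger (3.1.0 per the file headers) on mm10, which is GRCm38, over 31053 genes, without normalization. The annotation and filters behind them are not given in the sources used here. Barcodes were chosen by the rule in the report, UMIs were summed per library, and genes kept by filterByExpr were tested with edgeR 4.0.16 (quasi-likelihood F test, TMM factors, Benjamini-Hochberg adjustment, R 4.3.3). Age was fitted with temperature as a term, temperature with age, the difference of the cold response with 3D and 14D pooled, and the age effect between cell classes on 12 sums with library as a block. Shares were compared with exact permutation tests (scipy 1.17.1), and intervals are exact 95% binomial intervals that cover counting error only. DESeq2 1.42.0 and other filters, scalings, depths and libraries left out were alternatives. The fit was tested on simulated data. No pairing of libraries was used. Members, lists and tests were chosen with earlier results of these data known. Genes were named by size of change among those past an adjusted p of 0.05, separately for genes at or above and below their fibroblast level, leaving out genes of the rule, and other genes shown come from the lists or were chosen after their values were seen. Coordinates are those of GENCODE M21 and promoter sequences those of RefSeq.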

Additional observations from a re-analysis of the deposited data

Results flagged for a closer look

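The age effect (Aged over Young, log2) was compared between capillary cells and the Plvap+ Lrg1+ endothelial cells, or the fibroblasts, of the same libraries with edgeR's test of the difference itself, and the genes given here passed it at an adjusted p under 0.05. The CPM given here are scaled by the TMM factors of these joint fits and differ from the CPM used above. Against the Plvap+ Lrg1+ cells, Igkc, an immunoglobulin chain, differed by 12.31 ± 1.84 (SE, edgeR adjusted p = 0.000104), with 1.03 ± 1.27 CPM in Young and 28.8 ± 48.5 CPM in Aged capillary cells and 70.3 ± 122 and 0 CPM in Plvap+ Lrg1+ cells. H2-Aa, an MHC class II chain, differed by 8.11 ± 1.25 (SE, edgeR adjusted p = 0.000104), with 0.851 ± 0.737 CPM in Young and 47.7 ± 77.5 CPM in Aged capillary cells and 24.1 ± 33.3 and 2.83 ± 4.90 CPM in Plvap+ Lrg1+ cells. Cd74, its invariant chain, differed by 5.57 ± 0.86 (SE, edgeR adjusted p = 0.000104), with 9.29 ± 8.18 CPM in Young and 92.4 ± 148 CPM in Aged capillary cells and 63.8 ± 89.1 and 4.48 ± 4.27 CPM in Plvap+ Lrg1+ cells. In all 3 the Aged capillary level came mostly from Aged 14D, where a single barcode held 56 of 104 Igkc, 92 of 168 H2-Aa and 160 of 323 Cd74 UMIs. S100a9, a neutrophil protein, differed by -13.01 ± 2.29 (SE, edgeR adjusted p = 0.00164), with 12.4 ± 21.6 CPM in Young and 0.319 ± 0.553 CPM in Aged capillary cells and 0 and 31.1 ± 53.9 CPM in Plvap+ Lrg1+ cells, and all 59 UMIs of Young TN were in 1 capillary barcode. Meg3, an imprinted long noncoding RNA, differed by -2.96 ± 0.53 (SE, edgeR adjusted p = 0.00172), with 78.8 ± 35.1 CPM in Young and 41.0 ± 15.3 CPM in Aged capillary cells and 69.3 ± 98.5 and 373 ± 184 CPM in Plvap+ Lrg1+ cells. For Igkc and S100a9, where one group had no UMI, the fitted value depends on the prior count added and is no measure of size. The SDs (n = 3 libraries) are as large as many of these means, DESeq2 called 0 of these genes, and the part of single barcodes with immune RNA was not tested.

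Against fibroblasts the difference lay mostly on the fibroblast side. Crispld1 differed by 2.36 ± 0.26 (SE, edgeR adjusted p = 0.000471), with 16.1 ± 4.11 CPM in Young and 24.2 ± 1.61 CPM in Aged capillary cells and 34.0 ± 6.13 and 10.3 ± 2.24 CPM in fibroblasts. The membrane protein Itm2a differed by 1.91 ± 0.32 (SE, edgeR adjusted p = 0.0184), with 12.1 ± 2.63 CPM in Young and 8.89 ± 3.96 CPM in Aged capillary cells and 259.9 ± 26.7 and 46.6 ± 7.93 CPM in fibroblasts. The parathyroid hormone receptor Pth1r differed by 1.61 ± 0.27 (SE, edgeR adjusted p = 0.0184), with 48.7 ± 15.7 CPM in Young and 63.6 ± 20.9 CPM in Aged capillary cells and 27.7 ± 7.34 and 11.8 ± 0.972 CPM in fibroblasts. For Edn1, endothelin, the difference was 1.15 ± 0.21 (SE, edgeR adjusted p = 0.0298), with 28.7 ± 4.76 CPM in Young and 31.2 ± 5.003 CPM in Aged capillary cells and 117 ± 16.1 and 59.5 ± 8.58 CPM in fibroblasts. For Evl, a regulator of actin, it was 1.07 ± 0.19 (SE, edgeR adjusted p = 0.0298), with 56.4 ± 7.63 CPM in Young and 52.1 ± 3.77 CPM in Aged capillary cells and 8.91 ± 0.906 and 3.87 ± 0.644 CPM in fibroblasts. These 5 were lower in Aged fibroblasts, each without a comparable fall in capillary cells. The surface protein Cd109 differed by -2.98 ± 0.51 (SE, edgeR adjusted p = 0.0207), with 7.36 ± 4.01 CPM in Young and 5.001 ± 4.79 CPM in Aged capillary cells and 7.92 ± 0.509 and 35.4 ± 2.72 CPM in fibroblasts. F2r, the thrombin receptor, differed by -2.70 ± 0.34 (SE, edgeR adjusted p = 0.00126), with 36.8 ± 12.1 CPM in Young and 28.7 ± 7.33 CPM in Aged capillary cells and 3.73 ± 0.422 and 18.4 ± 5.73 CPM in fibroblasts. The lectin Clec1a differed by -2.25 ± 0.21 (SE, edgeR adjusted p = 0.000141), with 115 ± 24.2 CPM in Young and 105 ± 10.8 CPM in Aged capillary cells and 1.04 ± 0.272 and 4.49 ± 0.898 CPM in fibroblasts. For the chloride channel protein Clic5 the difference was -2.24 ± 0.27 (SE, edgeR adjusted p = 0.000878), with 202 ± 7.84 CPM in Young and 185 ± 24.7 CPM in Aged capillary cells and 5.81 ± 1.30 and 25.8 ± 8.16 CPM in fibroblasts. For Fblim1, a protein of cell junctions, it was -2.17 ± 0.25 (SE, edgeR adjusted p = 0.000563), with 34.3 ± 1.92 CPM in Young and 25.1 ± 4.41 CPM in Aged capillary cells and 4.03 ± 0.76 and 12.8 ± 3.37 CPM in fibroblasts. These 5 were higher in Aged fibroblasts, and Clec1a and Clic5 stood far lower there than in capillary cells at either age. The sum of the 10 markers of fat capillaries outside the rule was also higher in Aged fibroblasts at each temperature. It was 507, 1210 and 990 CPM in Young and 816, 1904 and 1724 CPM in Aged without TMM scaling, so the ages overlapped over all temperatures. Fabp4 led it, at a mean of 1039 CPM, so this sum says little of the other markers. The sum of the 12 endothelial markers was not higher (451, 441 and 512 CPM and 418, 396 and 471 CPM). Ramp2 led that sum, at a mean of 294 CPM, so it says little of the others. Other genes past the test, far higher in capillary cells, were also higher in Aged fibroblasts. Among them were Fli1 (2.06 CPM in Young and 4.66 CPM in Aged), Adgrf5 (2.38 and 6.33 CPM) and Tmem204 (1.07 and 3.29 CPM). Evl, Efnb2 and Pth1r, also higher in capillary cells, were lower in Aged fibroblasts. The part of free capillary RNA in Cd109, F2r, Clec1a, Clic5 and Fblim1 was not tested.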

How the results depend on the processing

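With 1 library per age and temperature, 2 degrees of freedom remain for the spread in the fits on capillary cells alone. In the fits between cell classes 4 remain. The counts of genes moved with most choices. For age, the 19 genes became 246 without a filter on low counts, 36 with at least 2000 UMIs per cell, 55 with Gpihbp1 and Car4 at 5 or more, 59 after thinning to 2000 UMIs, 5 with mixed barcodes left out, 0 without the temperature term, 42 with equal cells per library, 64 with at most 1 adipocyte UMI, 68 without the deepest 5% of cells, and 25 with at most 1 adipocyte, 1 pericyte and 1 immune UMI, the last 3 added after seeing the data. For temperature, the 112 became 602, 170, 228, 205 and 10 under the first 5 of these, 25 without the age term, 173 with at most 1 adipocyte UMI, 196 without the deepest 5% and 84 with the 3 limits. For the difference of the cold response between ages, the 0 genes became 1 with DESeq2, 34 without a filter, 1 with at least 2000 UMIs and 5 with mixed barcodes left out. For the age effect against Plvap+ Lrg1+ cells, the 5 became 0 with DESeq2, 13 without a filter and 2 after thinning, and against fibroblasts the 33 became 187 without a filter. DESeq2 called 26 genes for age, 11 of them shared, and 77 for temperature, 65 of them shared, and edgeR with RLE factors called 19 and 123, which held all 19 and all 112. Leaving out 1 library at a time gave 34 to 189 genes for age (106 without Young TN, 34 without Young 3D, 112 without Young 14D, 189 without Aged TN, 117 without Aged 3D, 134 without Aged 14D) and 183 to 506 for temperature (in the same order 191, 183, 506, 305, 460 and 409). It gave 0 to 15 for the difference of the cold response (1 without Young 3D, 15 without Young 14D, 4 without Aged 3D, 0 without Aged 14D), 1 to 12 against Plvap+ Lrg1+ cells (12 without Young 3D, 11 without Young 14D, 1 without Aged 14D) and 11 to 59 against fibroblasts (11 without Young TN, 13 without Young 14D, 56 without Aged TN, 59 without Aged 14D). A condition then held by a lone library is assumed to vary like the others, and fewer degrees of freedom remain. In the age comparison, a temperature left with 1 library adds almost nothing to the age value. Leaving out either age of a temperature therefore gave nearly the same value, as for Sncg (0.921 without Young TN and 0.923 without Aged TN). For age these alternatives are not separate checks, though each is counted in the numbers of alternatives given. The difference in the share of all barcodes was 0.489 to 4.00 percentage points (0.489 without Aged TN) against 2.36 with all libraries, that in the share of endothelial barcodes 6.48 to 11.2 (5.04 with Gpihbp1 and Car4 at 5 or more and 7.70 after thinning, both at exact permutation p = 0.3, against 8.66), and that in cells with cell cycle UMIs -1.45 to -0.308, which turned to 3.36 with at least 1 UMI. Among genes named by the rule, 216 of 265 values for age and 272 of 339 for temperature kept their direction and stayed past the threshold, 49 and 66 kept only their direction, and 1 reversed, Gm13889 at 3D (0.38 without the deepest 5% of cells). Among other temperature genes described, calls were lost in 7 of 18 alternatives for Hbegf, 6 of 17 or 18 for Hadha, Nrp2 and Tef, and 5 of 16 to 18 for Fabp4, Igfbp7, Cacybp, Cirbp, Malat1, Lipg, Ephx2 and Pdgfrb. The causes were not tested. The difference of the cold response could not be fitted without Young TN or Aged TN, and no value could be had against Plvap+ Lrg1+ cells with mixed barcodes left out. Genes of few UMIs are limited by depth.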
